A study of Mus musculus with 9 samples.

Results

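The genes described here are 38 genes of the cell cycle and of DNA replication, listed by symbol: the subunits and loading factors of the replicative helicase, enzymes that supply and copy DNA, G1 cyclins and E2f1, mitotic kinases and cyclins, checkpoint and kinetochore genes, and spindle and chromosome genes. They were read from arrays of the 3 layers of the newborn mouse bladder: the detrusor (its smooth muscle coat), the stroma (the connective tissue under the lining) and the urothelium (the lining epithelium). The array annotation pairs 37 of the 38 with at least 1 probe set that names a single gene, 89 probe sets in all out of 45101 on the array, and Ccnb1 was not analysed here. Of these 37, 36 passed a filter on dim probe sets and are among the 13064 genes tested. Tyms (thymidylate synthase) did not pass, with its 4 probe sets at or above the array median on between 0 and 2 of the 9 arrays. For 33 of the 36 the probe set lay at or above the array median on all 9 arrays, and the exceptions were Ccne2 (7 arrays), Cdc6 (8) and Kif11 (8).

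The tissue of all 9 arrays came from FVB/N mice carrying a transgene in which smooth muscle gamma actin (Actg2) sequences drive a green fluorescent protein, at postnatal day 1 or 2, and no group lacked the transgene. Each layer was cut by laser from frozen sections 8 microns thick, the samples were not pooled, and the RNA went through 2 rounds of amplification before hybridisation to 1 array per sample. Detrusor 1 and 2, stroma 1 and urothelium 2 came from day 1, and the other 5 arrays from day 2. No label links an array to an animal. The p-values therefore cover only how far these samples spread, part of which may be technical, and they are too small where a bladder gave more than 1 array to a layer. The comparisons ask in which layer of the bladder wall replication and mitosis genes were most abundant around birth.

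A dividing cell first licenses its origins: Cdc6 and Cdt1 load the ring of Mcm2 to Mcm7 onto DNA in G1, and geminin (Gmnn) blocks Cdt1 so that no origin fires again before the next division. Cyclins D and E free E2F factors from the retinoblastoma protein, which raises the transcripts of the helicase and nucleotide enzymes, and a later wave, from genes that MuvB and Foxm1 bind, brings the kinases, kinetochore proteins and motors of mitosis. Most of these transcripts are scarce in resting cells, which is why they serve as an index of proliferation, and the adult urothelium is known for its very slow turnover.

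The promoters of 4 of the genes below are shown because between them they hold letters of both control sites, the E2F site of the replication wave and the CHR element of the mitotic wave. Each of the 4 was called against detrusor below, in urothelium, in stroma or in both. Each line gives the 250 bases before the RefSeq transcription start of assembly GRCm38.p6, read on the strand of the gene, 5′ to 3′. Capitals mark matches on either strand to the E2F site (TTNNCGC, with C or G at each N), to the CHR element (written TTTGAA) and to the CCAAT box (those 5 letters). The genes are Mcm5 (chr8:75109259-75109508, plus strand) and Mcm6 (chr1:128359706-128359955, minus strand), 2 subunits of the helicase ring, then Cdk1 (chr10:69352913-69353162, minus strand), the kinase that starts mitosis, and Cdc20 (chr4:118437344-118437593, minus strand), the activator of the anaphase-promoting complex.
Mcm5: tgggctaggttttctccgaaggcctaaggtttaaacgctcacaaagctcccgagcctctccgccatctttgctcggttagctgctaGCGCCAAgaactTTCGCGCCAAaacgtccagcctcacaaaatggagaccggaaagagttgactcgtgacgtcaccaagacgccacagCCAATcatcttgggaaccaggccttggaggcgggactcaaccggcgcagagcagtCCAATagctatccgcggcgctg
Mcm6: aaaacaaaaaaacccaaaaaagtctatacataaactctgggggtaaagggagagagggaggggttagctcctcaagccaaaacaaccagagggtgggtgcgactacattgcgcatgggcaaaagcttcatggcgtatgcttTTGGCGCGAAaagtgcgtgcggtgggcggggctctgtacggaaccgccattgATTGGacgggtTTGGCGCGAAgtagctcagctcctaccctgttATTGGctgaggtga
Cdk1: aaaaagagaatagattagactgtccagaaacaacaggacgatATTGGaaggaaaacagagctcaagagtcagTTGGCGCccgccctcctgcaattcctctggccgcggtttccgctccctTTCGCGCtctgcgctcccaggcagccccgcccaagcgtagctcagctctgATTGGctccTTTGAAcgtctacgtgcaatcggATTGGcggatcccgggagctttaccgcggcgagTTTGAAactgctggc
Cdc20: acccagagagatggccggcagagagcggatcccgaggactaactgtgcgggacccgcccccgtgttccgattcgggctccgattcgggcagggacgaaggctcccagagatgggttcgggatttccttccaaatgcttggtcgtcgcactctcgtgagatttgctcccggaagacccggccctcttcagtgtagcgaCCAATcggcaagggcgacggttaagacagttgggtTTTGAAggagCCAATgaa

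In Mcm5 the E2F matches began 164, 152 and 149 bases before the start, and the last pair overlapped on opposite strands. Mcm6 had 2 such overlapping pairs, at 109 and 106 bases and at 46 and 43 bases, with no CHR match. Cdk1 had both kinds, E2F matches at 178 and 130 bases and CHR matches at 71 and 15 bases, whereas Cdc20 had a CHR match at 18 bases and no E2F match. RefSeq promoter windows were found for 29 of the 38 genes, 30 windows in all. An E2F match lay in 33.3% of these windows against 7.89% of all 32851 windows in the table, a CHR match in 23.3% against 16%, and a CCAAT box in 76.7% against 33.8%. Matches close to the start, as in Cdk1 and Cdc20, also occurred in Kif11 (CHR at 19 bases) and Top2a (CHR at 23 bases). The sites did not sort all genes by role. Mcm2 had a CHR match at 70 bases and no E2F match, and Ccnb1 an E2F match at 102 bases and no CHR match. Mcm3 and Pcna had neither, nor did Bub1, Bub1b, Aurka and Plk1. All of these are matches of letters, and the arrays do not measure binding.

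Levels are given as log2(intensity + 39.31), where 39.31 is the 20th percentile of all deposited values, so differences are on that log2 scale and understate the change of dim genes. Differences were tested with limma over all genes and called at a Benjamini-Hochberg adjusted p under 0.05. Before the genes themselves, some arrays stood apart in the markers of neighbouring tissue. Summed over 11 urothelial markers, the intensity was 312940 to 415192 on the urothelium arrays and 6931 to 11071 on detrusor, but 325459 on stroma 3, 117067 on stroma 1 and 25754 on stroma 2. Summed over 8 smooth muscle markers it was 344420 to 516921 on detrusor and 20517 and 29669 on urothelium 2 and 1, but 313643 on urothelium 3. Of these markers, 11 of 11 urothelial ones were higher in urothelium than in detrusor, and 6 of 8 smooth muscle ones were lower. In stroma 4 of the 11 urothelial markers were higher than in detrusor and 2 of the 8 smooth muscle markers were lower. By limma, 0 of the 11 urothelial markers were called between urothelium and stroma, with 10 at an unadjusted p under 0.05. Of 9 mesenchymal markers, 5 were lower in urothelium than in detrusor and 5 than in stroma. The detrusor arrays also held skeletal muscle transcripts, with 3 of 5 tested markers lower in urothelium and 3 in stroma. Of the 6 endothelial, 8 leukocyte, 2 erythroid and 3 neural markers tested, 0 were called in any comparison of layers by limma. At an unadjusted p under 0.05 there were 6 leukocyte, 3 endothelial and 1 neural marker between urothelium and stroma, 2 leukocyte and 2 endothelial between stroma and detrusor, and 1 neural between urothelium and detrusor. Below that unadjusted threshold were 2481, 2986 and 3852 of all 13064 genes in these 3 comparisons. The ratio of the 3′ to the 5′ Actb probe sets, a sign of RNA length, was 2.27 to 7.49 on detrusor (highest on detrusor 2), up to 24.7 on stroma (on stroma 1) and 5.32 to 8.49 on urothelium. For Gapdh the same ratio ordered the layers differently, at 15.9 to 34.7 on detrusor, 15.3 to 31.8 on stroma and 19.1 to 23.4 on urothelium, and detrusor 2 had the highest of the 9 arrays.

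The replication and mitosis genes that passed the test against detrusor were all higher, in urothelium or in stroma, but in each comparison more of the 36 failed the test than passed it. No difference between stroma and urothelium passed, in a comparison where 0 of the 11 urothelial markers passed either. Against detrusor, 15 of the 36 genes were higher in urothelium and 0 lower, where 8.37% of all genes tested were called higher and 8.05% lower. In stroma 14 of the 36 were higher and 0 lower, where 2.72% of all genes were called higher and 3.12% lower. All 3 arrays of detrusor lay below all 3 of urothelium for 27 of the 36 genes, where 19.3% of all genes did so, and below all 3 of stroma for 26, where 15.3% did. For 0 of the 36 did they lie above, where 20% and 11.8% of all genes did. Both comparisons use the same 3 detrusor arrays, so they are not independent of each other. The median difference of the 36 genes was 1.15 in urothelium against detrusor, beside -0.0079 for all genes, and 1.35 in stroma against detrusor, beside 0.16. With each array centred on its median, the shift over all genes between stroma and detrusor moved from 0.16 to -0.25, the members' median to 0.94 and the count to 2 (Top2a and Cdc20). Of all genes, 5.61% were then called in either direction. The arrays are of bulk tissue, so fewer dividing cells and less transcript per cell cannot be told apart.

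**Figure D1:**
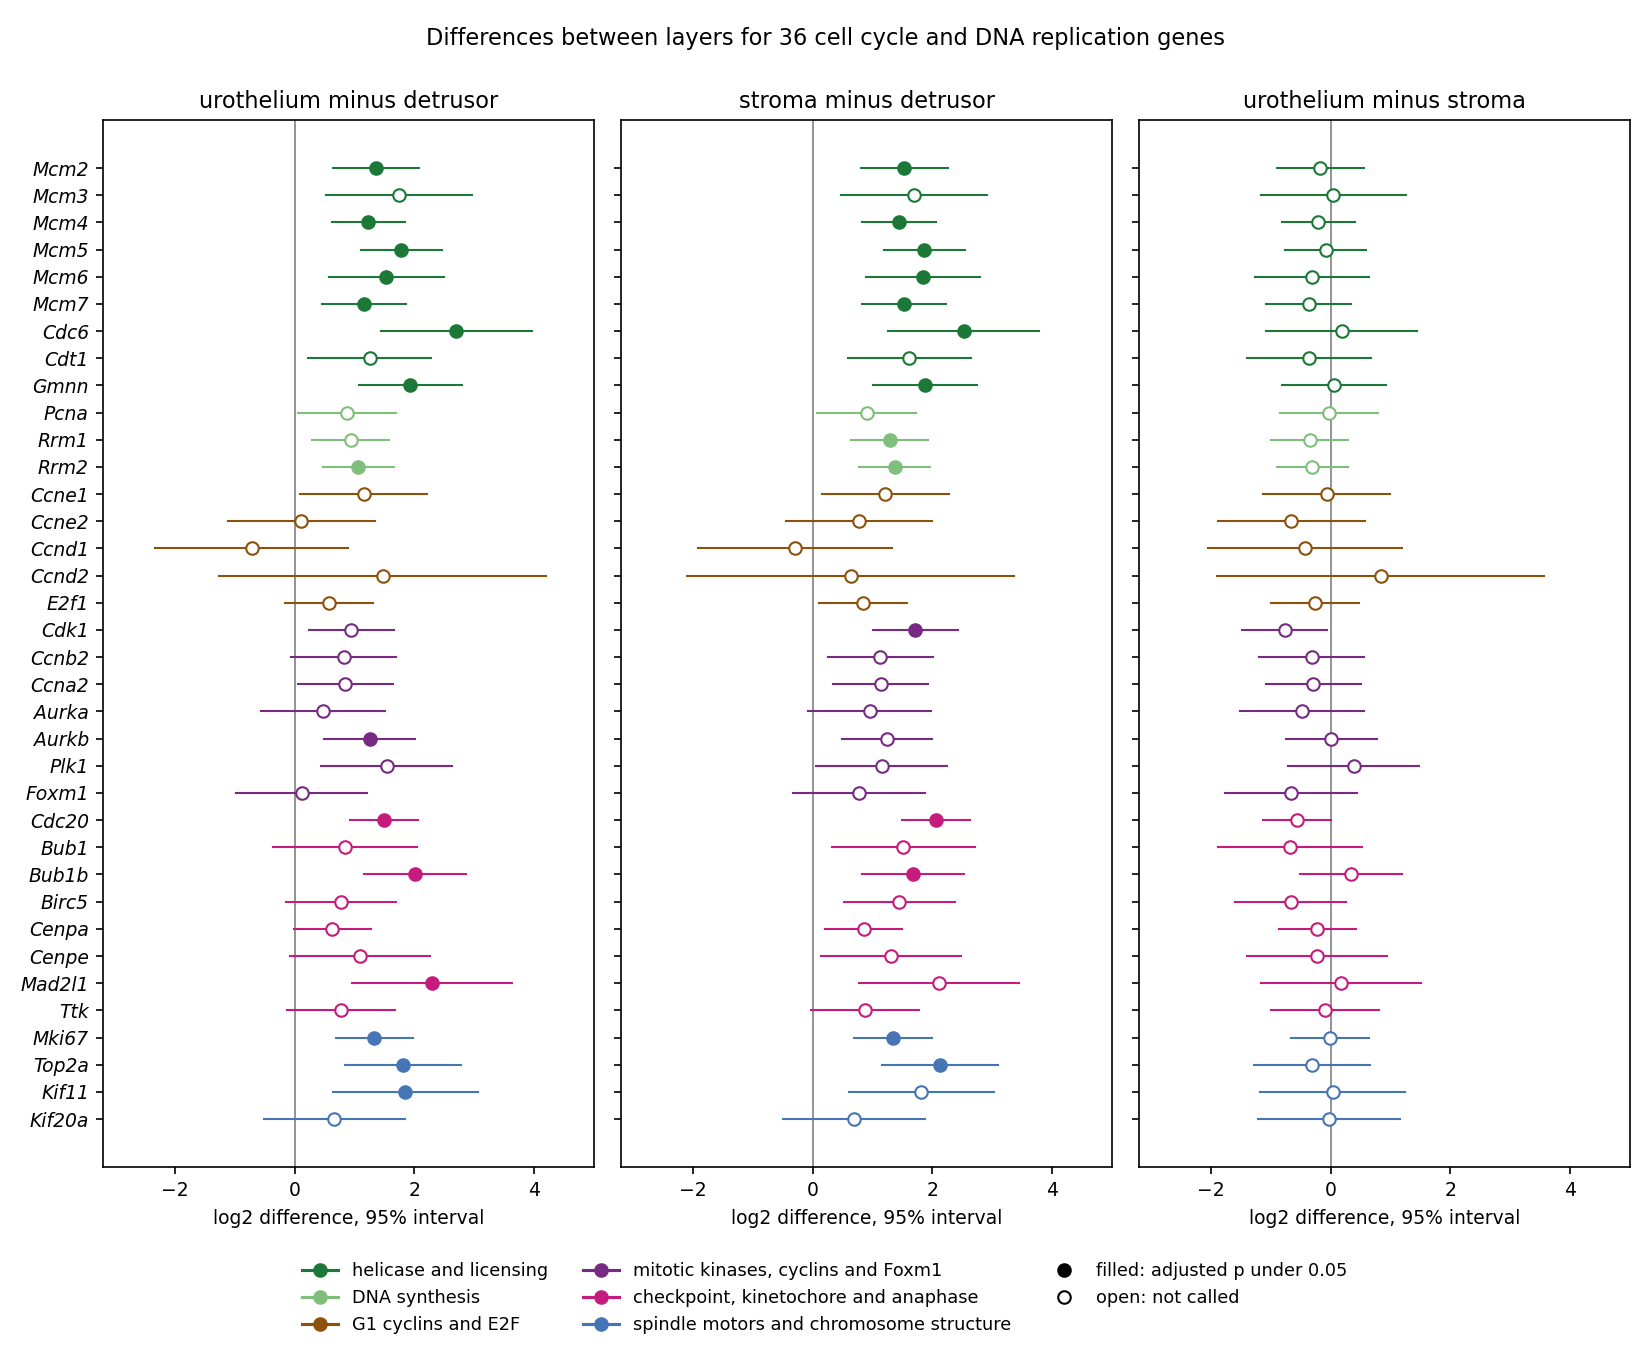
Log2 difference (point) and its 95% interval (line) for 36 cell cycle and DNA replication genes in the 3 comparisons of bladder layers, coloured by role, with filled points for genes called by limma at an adjusted p under 0.05. Filled points lie to the right of 0 in both comparisons with detrusor (15 and 14 genes), and every point of urothelium minus stroma is open.

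The counts depended on single arrays. In every called member all 3 detrusor arrays lay below all 3 of the layer compared, so leaving out arrays could not turn its direction. In urothelium against detrusor the count was 7 without detrusor 3 or without urothelium 3, and 8 without detrusor 2 or without urothelium 1. Of all genes, 8.97%, 14.0%, 11.2% and 11.5% were then called in either direction, against 16.4% with all arrays. In stroma against detrusor it was 1 without detrusor 3, 3 without detrusor 2, 4 without stroma 3, 7 without detrusor 1 and 9 without stroma 2. Over all genes, 0.80%, 1.45%, 3.08%, 2.82% and 6.51% were then called in either direction, against 5.84% with all arrays. Without stroma 3 and urothelium 3, the arrays with the most signal of a neighbouring layer, 6 genes were called in urothelium (Cdc20, Mcm4, Mcm5, Bub1b, Cdc6 and Gmnn) and 4 in stroma (Cdk1, Cdc20, Mcm4 and Mcm5). Of all genes, 14.4% and 3.28% were then called. The medians over the 36 genes were then 1.14 and 1.36. Over all 22 alternatives, 3 of the 15 genes were called every time in urothelium (Cdc20, Mcm5 and Cdc6) and 1 of the 14 in stroma (Cdc20), and all 15 and all 14 kept their direction. That direction was fixed in advance for the alternatives that left out arrays, weighted them, dropped the trend or fitted only the layers compared. It was also fixed for a changed pseudocount or filter wherever the same probe set stood for the gene. Rescaling the arrays, the mean of a gene's probe sets or adding day as a covariate could have turned it.

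Among the genes of the helicase and its loading, 7 of 9 were higher in urothelium than in detrusor and 7 of 9 in stroma, with medians of 1.53 and 1.70. Mcm5 read 12.45, 11.82 and 11.77 on detrusor 1 to 3, 13.89, 14.35 and 13.39 on stroma 1 to 3, and 13.75, 13.80 and 13.84 on urothelium 1 to 3. The highest detrusor array thus lay below the lowest array of the other layers. Mcm5 was 3.44-fold higher in urothelium than in detrusor (log2 difference 1.78 ± 0.31, SE, n = 3 per layer, limma adjusted p = 0.0035) and 3.64-fold higher in stroma (1.87 ± 0.31, adjusted p = 0.0098). The spread over the urothelium arrays was 0.05 (SD), against 0.38 in detrusor and 0.48 in stroma.

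Mcm6 read 12.07, 10.33 and 11.46 on the detrusor arrays, 12.92, 13.71 and 12.76 on stroma, and 12.94, 12.62 and 12.90 on urothelium. Detrusor 2 was the lowest of the 9 arrays and detrusor did not overlap the other layers. The difference was 1.53 ± 0.43 in urothelium (limma adjusted p = 0.035) and 1.84 ± 0.43 in stroma (adjusted p = 0.034). The call was lost in 10 of the 22 alternatives in urothelium and in 14 in stroma. The other subunits called were Mcm2, Mcm4 and Mcm7. In urothelium they were higher by 1.36, 1.23 and 1.15, with SEs between 0.28 and 0.33, and in stroma by 1.53, 1.44 and 1.52. Mcm3 differed by a like amount, 1.74 ± 0.55 and 1.70 ± 0.55, but did not pass the test (limma adjusted p = 0.055 and 0.0995). Its detrusor arrays ran from 9.87 to 11.82, and stroma 1, at 11.45, lay within that range.

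The loading factor Cdc6 read 9.87, 7.61 and 9.62 on detrusor, 11.06, 12.17 and 11.43 on stroma, and 11.63, 12.18 and 11.39 on urothelium. Detrusor 2 lay over 2 log2 units below the other detrusor arrays, and every detrusor array lay below the others. Cdc6 was higher by 2.70 ± 0.57 in urothelium (6.51-fold, limma adjusted p = 0.0092) and by 2.52 ± 0.57 in stroma (5.74-fold, adjusted p = 0.030). Without detrusor 2 the differences were 1.99 (3.98-fold, limma adjusted p = 0.020) and 1.81 (3.51-fold), and the second was no longer called (adjusted p = 0.069). Gmnn, the inhibitor of relicensing, read 10.87, 10.28 and 11.44 on detrusor, 12.06, 13.28 and 12.89 on stroma, and 12.93, 12.57 and 12.87 on urothelium, again with no overlap. Its differences were 1.93 ± 0.39 (limma adjusted p = 0.0075) and 1.88 ± 0.39 (adjusted p = 0.023). Cdt1, the loading factor that geminin binds, had differences of 1.25 ± 0.47 and 1.62 ± 0.47 that did not pass (limma adjusted p = 0.098 and 0.071). Its detrusor arrays read 13.25, 11.57 and 12.45 and its stroma arrays 13.33, 14.95 and 13.85, so the margin between the layers was small on detrusor 1.

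**Figure D2:**
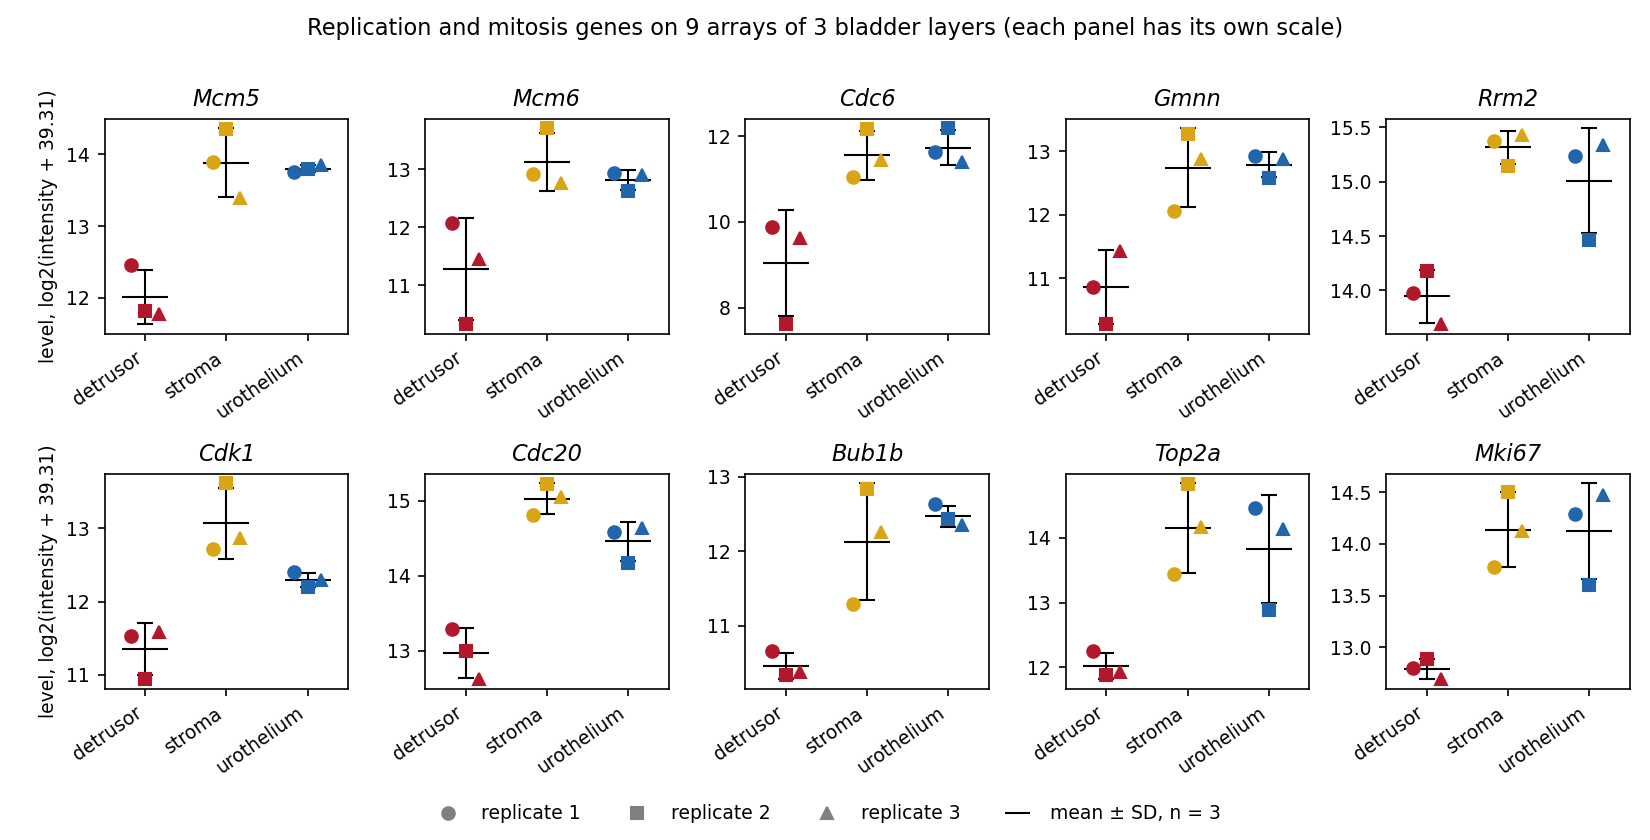
Level of 10 genes on each of the 9 arrays, as log2(intensity + 39.31), by layer, with the mean and SD (n = 3) and a scale of its own for each gene. In all 10 panels the 3 detrusor arrays lie below the 3 stroma and the 3 urothelium arrays, and in Cdk1 and Cdc20 the urothelium arrays also lie below the stroma arrays.

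Of the DNA synthesis genes tested, 1 of 3 was higher in urothelium and 2 of 3 in stroma, where 8.37% and 2.72% of all genes were. Rrm2, the small subunit of ribonucleotide reductase, which makes deoxynucleotides, read 13.98, 14.17 and 13.69 on detrusor, 15.37, 15.15 and 15.43 on stroma, and 15.24, 14.46 and 15.33 on urothelium. Urothelium 2 was the low array of its layer but stood above all of detrusor. The differences were 1.06 ± 0.27 (limma adjusted p = 0.021) and 1.37 ± 0.27 (adjusted p = 0.018). Rrm1, the large subunit of the same enzyme, was higher in stroma by 1.28 ± 0.29 (limma adjusted p = 0.030), and its difference of 0.93 ± 0.29 in urothelium just missed the threshold (adjusted p = 0.052). The call in stroma was lost in 12 of the 22 alternatives. The other probe set of Rrm1 that passed the filter differed by 0.96 ± 1.02 in urothelium and 0.53 ± 1.02 in stroma and was not called (limma adjusted p = 0.62 and 0.81). It read 8.65 on stroma 1, below all 3 detrusor arrays. Pcna, the clamp that holds the polymerase on DNA, differed by 0.87 and 0.90, neither called (limma adjusted p = 0.15 and 0.18). It read 13.47, 12.39 and 13.87 on detrusor, and stroma 1 at 13.66 fell within that range. Tyms, which failed the filter, read between 5.39 and 6.72 on detrusor, between 5.64 and 9.18 on stroma and between 5.38 and 8.13 on urothelium over its 4 probe sets.

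Of the G1 cyclins and E2f1, 0 of 5 were called in any comparison of layers by limma. At an unadjusted p under 0.05 there was 1 in urothelium against detrusor (Ccne1), 2 in stroma against detrusor (Ccne1 and E2f1) and 0 in urothelium against stroma. Below that threshold, in the same order, were 3852, 2986 and 2481 of all 13064 genes. Whether these 5 differ from the other roles was not tested. E2f1, the transcription factor of the replication wave, differed by 0.57 ± 0.33 in urothelium and by 0.84 ± 0.33 in stroma (limma adjusted p = 0.29 and 0.17). Ccne1, a cyclin of the G1 to S step, read 12.18, 12.17 and 12.26 on detrusor, 14.66, 13.19 and 12.41 on stroma, and 13.22, 13.02 and 13.83 on urothelium. The detrusor arrays were the lowest, and stroma spread over more than 2 log2 units with stroma 1 on top. Its differences of 1.15 ± 0.48 and 1.22 ± 0.48 were not called (limma adjusted p = 0.14 and 0.17), and its other probe set differed by 0.08 and 0.54. Ccne2, the other E cyclin, differed by 0.11 ± 0.56 and 0.77 ± 0.56 with overlapping layers.

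The D cyclins, which carry growth signals into G1, were not called in any comparison, and single arrays stood apart in them. Ccnd1 read 13.79, 13.71 and 13.41 on detrusor, 13.70, 12.30 and 14.02 on stroma, and 14.28, 10.91 and 13.55 on urothelium. Urothelium 2 was low and all 3 layers overlapped. The differences from detrusor were -0.72 ± 0.73 in urothelium and -0.30 ± 0.73 in stroma (limma adjusted p = 0.57 and 0.84), and the first was 0.28 without urothelium 2. The other 2 probe sets of Ccnd1 were also at their lowest on urothelium 2, at 9.42 and 5.88. Ccnd2 read 12.75, 11.24 and 12.11 on detrusor, 9.06, 13.78 and 15.17 on stroma, and 14.77, 12.60 and 13.14 on urothelium. Stroma 1 lay below every other array. Stroma 1 was also the lowest of the 9 arrays in 2 of the other 5 probe sets of Ccnd2, at 8.11 and 6.82, while another read 9.49 there and had its lowest value on detrusor 2, at 5.64. The gene's differences were 1.47 ± 1.24 in urothelium and 0.63 ± 1.24 in stroma (limma adjusted p = 0.48 and 0.79), and the second was -0.62 without stroma 3.

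**Figure D3:**
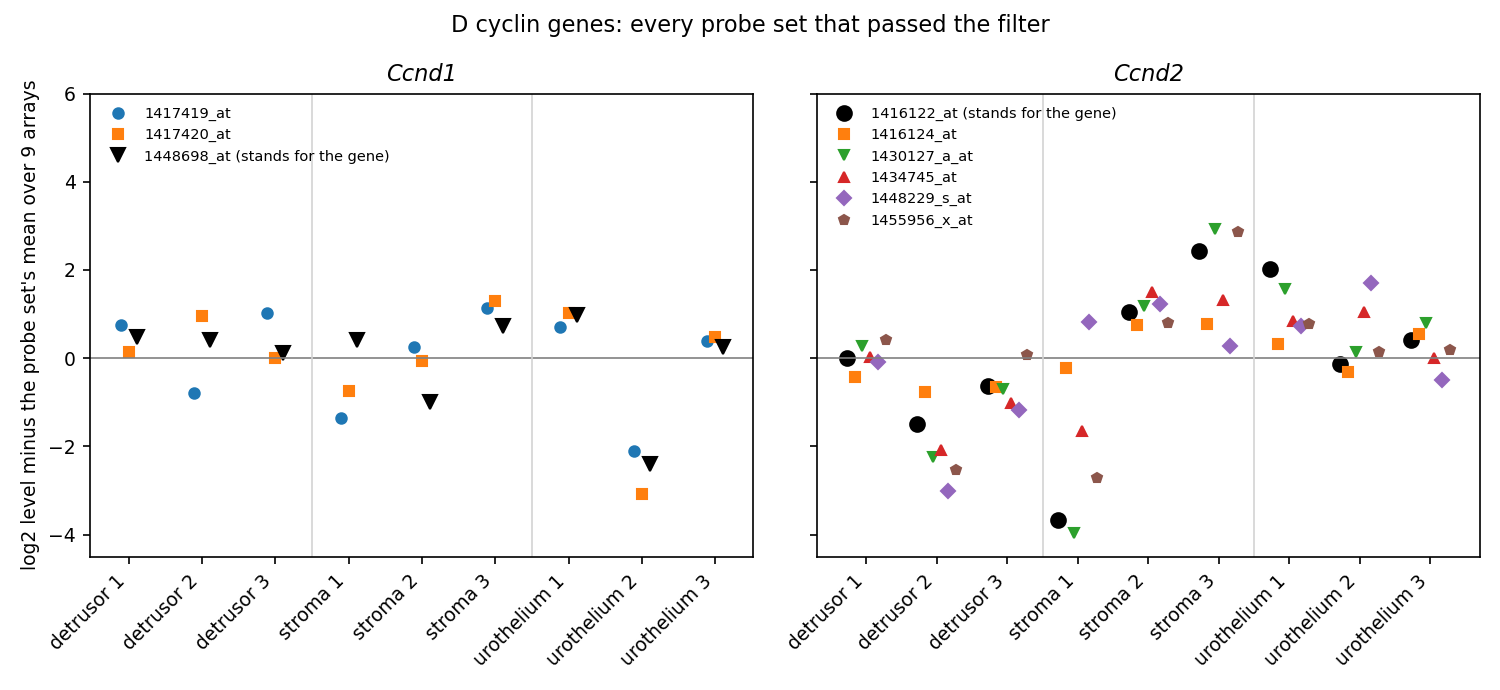
Log2 level of every probe set of Ccnd1 and Ccnd2 that passed the filter on each of the 9 arrays, minus that probe set's own mean over the 9 arrays, with the probe set that stands for the gene in black. All 3 probe sets of Ccnd1 are lowest on urothelium 2, and in Ccnd2 the black probe set is lowest on stroma 1.

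Of the mitotic kinases, mitotic cyclins and Foxm1, 1 of 7 was higher in urothelium (Aurkb) and 1 of 7 in stroma (Cdk1). The shares of all genes called higher were 8.37% and 2.72%. All 7 differences were above 0 in both comparisons, beside 6477 and 7616 of all 13064 genes. Cdk1 read 11.52, 10.94 and 11.59 on detrusor, 12.72, 13.61 and 12.86 on stroma, and 12.40, 12.19 and 12.29 on urothelium. The layers did not overlap, with detrusor lowest, urothelium between and stroma highest. Cdk1 was 3.28-fold higher in stroma than in detrusor (1.71 ± 0.32, limma adjusted p = 0.017), and its difference in urothelium was 0.94 ± 0.32 (adjusted p = 0.074). Aurkb, the kinase of the chromosomal passenger complex, read 10.51, 9.84 and 10.26 on detrusor, 11.04, 11.75 and 11.55 on stroma, and 11.80, 11.24 and 11.32 on urothelium. Detrusor lay below both other layers, and the differences were 1.25 ± 0.34 (limma adjusted p = 0.031) and 1.24 ± 0.34 (adjusted p = 0.062).

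The remaining mitotic regulators were not called. Plk1, a kinase of spindle assembly and mitotic exit, differed by 1.54 ± 0.50 in urothelium (limma adjusted p = 0.058) and by 1.16 ± 0.50 in stroma (adjusted p = 0.19). The cyclins Ccna2 and Ccnb2, partners of Cdk1, differed by 0.84 and 0.82 in urothelium and by 1.14 and 1.13 in stroma. The other probe set of Ccna2 differed by 0.24 in urothelium and 0.28 in stroma (limma adjusted p = 0.77 and 0.73). Aurka, the kinase of the spindle poles, differed by 0.47 ± 0.47 and 0.95 ± 0.47 with overlapping arrays. Foxm1, the factor that activates mitotic genes, differed by 0.11 ± 0.50 in urothelium and by 0.77 ± 0.50 in stroma. Its stroma arrays read 8.90, 10.61 and 10.80, on both sides of the detrusor values of 9.34, 9.21 and 9.44.

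Among the checkpoint, kinetochore and anaphase genes, 3 of 8 were higher in urothelium (Cdc20, Bub1b and Mad2l1) and 2 of 8 in stroma (Cdc20 and Bub1b). Cdc20 read 13.29, 13.00 and 12.62 on detrusor, 14.81, 15.22 and 15.06 on stroma, and 14.58, 14.16 and 14.64 on urothelium, and the 3 layers did not overlap. It was 2.81-fold higher in urothelium (1.49 ± 0.26, limma adjusted p = 0.0035) and 4.17-fold higher in stroma (2.06 ± 0.26, adjusted p = 0.0025), and it was called in every alternative of both comparisons. Bub1b encodes BubR1, part of the complex that holds Cdc20 back until all chromosomes are attached. It read 10.66, 10.33 and 10.38 on detrusor, 11.29, 12.84 and 12.26 on stroma, and 12.63, 12.43 and 12.35 on urothelium. Detrusor was the lowest layer, and stroma 1 was nearest to it. The differences were 2.01 ± 0.39 (4.03-fold, limma adjusted p = 0.0056) and 1.67 ± 0.39 (adjusted p = 0.031), while the gene's other probe set that passed the filter differed by 0.84 and 0.64 and was not called. In stroma the call of Bub1b was lost in 12 of the 22 alternatives.

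Mad2l1, a further part of that complex, read 10.76, 9.23 and 11.91 on detrusor, 12.42, 13.30 and 12.51 on stroma, and 12.14, 13.37 and 13.26 on urothelium. Its detrusor arrays spread widely (SD 1.35) yet did not reach the other layers. The difference was 2.29 ± 0.61 in urothelium (4.90-fold, limma adjusted p = 0.026) and 2.11 ± 0.61 in stroma (adjusted p = 0.070). In urothelium it was 1.59 (3.01-fold) and not called without detrusor 2 (limma adjusted p = 0.074), and 2.93 (7.62-fold) without detrusor 3 (adjusted p = 0.015). The other 5 genes of this role were the checkpoint kinases Bub1 and Ttk, the centromere histone Cenpa, the kinetochore motor Cenpe and Birc5, the survivin subunit of the chromosomal passenger complex. Their differences were 0.63 to 1.08 in urothelium and 0.85 to 1.51 in stroma, and none was called. Bub1 had its highest value on stroma 2, at 12.98, where stroma 1 and 3 read 11.18 and 10.60.

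Of the spindle and chromosome genes, 3 of 4 were higher in urothelium (Mki67, Top2a and Kif11) and 2 of 4 in stroma (Mki67 and Top2a). Mki67, the coat protein of mitotic chromosomes and the standard marker of dividing cells, read 12.80, 12.89 and 12.69 on detrusor, 13.78, 14.50 and 14.12 on stroma, and 14.29, 13.60 and 14.48 on urothelium. The detrusor arrays lay within 0.10 (SD) of their mean, well below the other layers. Mki67 was 2.52-fold higher in urothelium (1.33 ± 0.29, limma adjusted p = 0.011) and 2.54-fold higher in stroma (1.34 ± 0.29, adjusted p = 0.027). Top2a, the topoisomerase that untangles replicated chromosomes, read 12.25, 11.88 and 11.94 on detrusor, 13.44, 14.83 and 14.16 on stroma, and 14.46, 12.89 and 14.14 on urothelium. Stroma 1 and urothelium 2, both from day 1, were the low arrays of their layers and stayed above detrusor. Its differences were 1.81 ± 0.44 (limma adjusted p = 0.018) and 2.12 ± 0.44 (adjusted p = 0.022), and its other probe set differed by 0.0044 and 1.16 and was not called.

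Kif11, the motor that pushes the spindle poles apart, read 9.79, 7.74 and 9.82 on detrusor, 11.24, 11.16 and 10.41 on stroma, and 11.31, 10.69 and 10.91 on urothelium. Detrusor 2 again lay about 2 log2 units below its layer, and no detrusor array reached the other layers. Kif11 was higher in urothelium by 1.85 ± 0.55 (limma adjusted p = 0.042) and differed by 1.82 ± 0.55 in stroma (adjusted p = 0.080), while its other probe sets differed by 0.60 and -0.025 in urothelium. Without detrusor 2 the difference in urothelium was 1.16 and not called (limma adjusted p = 0.096), and the call was lost in 12 of the 22 alternatives. Kif20a, a motor of cytokinesis, differed by 0.66 and 0.69, was not called, and its layers overlapped.

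More than 1 probe set passed for 21 of the 36 genes, 69 probe sets in all. Tested each on its own among 22207 probe sets, an alternative added after the values were seen, 18 of the 69 were higher in urothelium than in detrusor and 0 lower, where 6.1% of all probe sets were called higher and 6.19% lower. In stroma 17 were higher and 0 lower, where 1.66% were called higher and 2.3% lower. These 18 and 17 probe sets belong to 14 genes each. For 7 of the 36 genes (Cdc20, Ccne1, Mcm4, Mcm5, Mcm6, Aurkb and Rrm2) the probe set that stands for the gene has a name with the suffix x, by which the maker marks probes that may also bind other transcripts. Aurkb had no probe set without a suffix. For Cdc20, Mcm5, Mcm6, Mcm4 and Ccne1 the differences of the probe set without the suffix in urothelium and stroma lay above 0, but only those of Cdc20 were called, at 1.40 and 1.68. They were 1.63 and 1.97 for Mcm5, 2.52 and 2.62 for Mcm6, 1.30 and 1.29 for Mcm4 and 0.08 and 0.54 for Ccne1, with limma adjusted p between 0.058 and 0.93. Rrm2 had a pair of such probe sets, with differences of 1.17 (called) and 1.30 in urothelium and of 0.89 and 0.40 in stroma, neither called there.

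Between urothelium and stroma, 0 of the 36 genes were called by limma, and 2 were at an unadjusted p under 0.05, Cdk1 and Cdc20. Below that unadjusted threshold were 2481 of all 13064 genes. Of all genes tested, 0.0612% were called higher in urothelium and 0.168% lower. Cdk1 differed by -0.77 (95% interval -1.49 to -0.06, limma adjusted p = 0.23) and Cdc20 by -0.57 (-1.14 to -0.0032, adjusted p = 0.26). Those were the only members lower in urothelium with no overlap of arrays, where 13.3% of all genes were so, and 0 members were higher with no overlap, where 9.77% of all genes were. The median of the 36 was -0.23 beside -0.12 for all genes, and 0.20 beside 0.31 with arrays centred on their medians. For 11 of the 36 genes, the 95% interval lay within 1 log2 unit of 0 on both sides, among them Mki67 (-0.66 to 0.64), Mcm5 (-0.76 to 0.59) and Mcm4 (-0.82 to 0.40). For the other 25 a difference of 1 log2 unit was not outside the interval, so the layers cannot be said to be alike in them.

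Array by array, replication genes (the helicase, licensing and DNA synthesis roles, 12 genes) and mitosis genes (the last 3 roles, 19 genes) were averaged separately. The mean level of the replication genes was 12.37, 11.38 and 12.06 on detrusor, 13.16, 13.98 and 13.53 on stroma, and 13.50, 13.23 and 13.46 on urothelium. For the mitosis genes it was 10.68, 10.23 and 10.63 on detrusor, 11.41, 12.50 and 11.73 on stroma, and 11.77, 11.58 and 11.59 on urothelium. In both summaries detrusor 2 was the lowest array and stroma 2 the highest, and detrusor did not overlap the other layers. The layer means of the replication genes were 1.62 above detrusor in stroma and 1.46 in urothelium, and those of the mitosis genes 1.36 and 1.13. Centred on array medians, the values in stroma were 1.21 and 0.95.

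**Figure D4:**
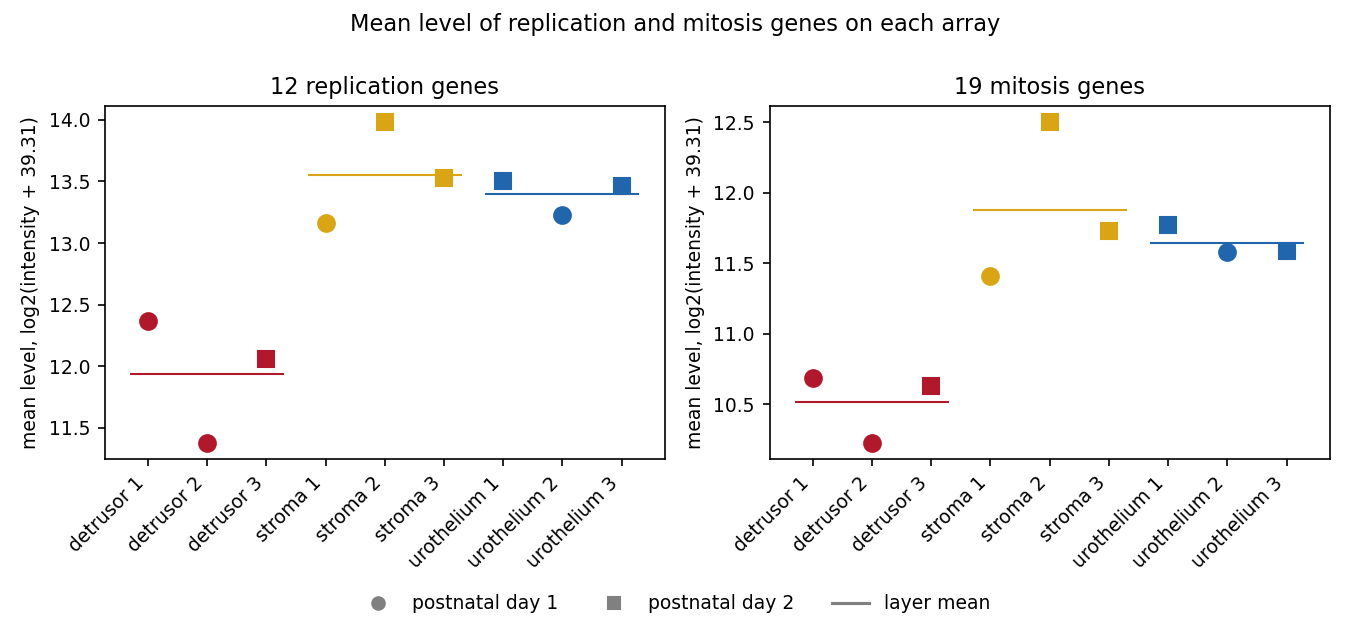
Mean level, as log2(intensity + 39.31), of 12 replication genes and 19 mitosis genes on each of the 9 arrays, coloured by layer, with circles for postnatal day 1, squares for day 2 and lines for the layer means. The detrusor arrays, at 11.38 to 12.37 and at 10.23 to 10.68, lie below all others in both panels, and stroma 2 is highest, at 13.98 and 12.50.

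Detrusor 2 had the lowest of the 9 values in 20 of the 36 genes, where it had the lowest value in 15.4% of all genes tested. Stroma 2 had the highest stroma value in 25 of the 36, where it had the highest in 31.5% of all genes. The mean level of all 36 genes was 12.87 on stroma 2, which had the least urothelial and the least smooth muscle marker signal of the stroma arrays, and 12.40 on stroma 3, which had the most urothelial signal. On urothelium 3, with 313643 units of smooth muscle marker signal, the mean of the 36 was 12.26, between urothelium 1 (12.40) and urothelium 2 (12.03) and above the detrusor range of 10.71 to 11.32. By the median over the 36 genes, the SD was lowest in urothelium, at 0.27 there, beside 0.42 for all genes, against 0.38 beside 0.39 in detrusor and 0.48 beside 0.56 in stroma. By another measure, the SD over arrays of a group's mean level, the replication genes gave 0.15 in urothelium, 0.51 in detrusor and 0.41 in stroma. The mitosis genes gave 0.11, 0.25 and 0.56, and the G1 cyclins with E2f1 0.66, 0.17 and 0.46. Their mean was 10.90 on urothelium 2, beside 12.12 and 11.95 on urothelium 1 and 3. Gene by gene, Ccne1 and Ccnd2 had a larger SD in stroma than in urothelium, and Ccnd1, Ccne2 and E2f1 a smaller one. The part of marker signal from a neighbouring layer, and of the Actb and Gapdh ratios, in these levels was not tested.

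**Figure D5:**
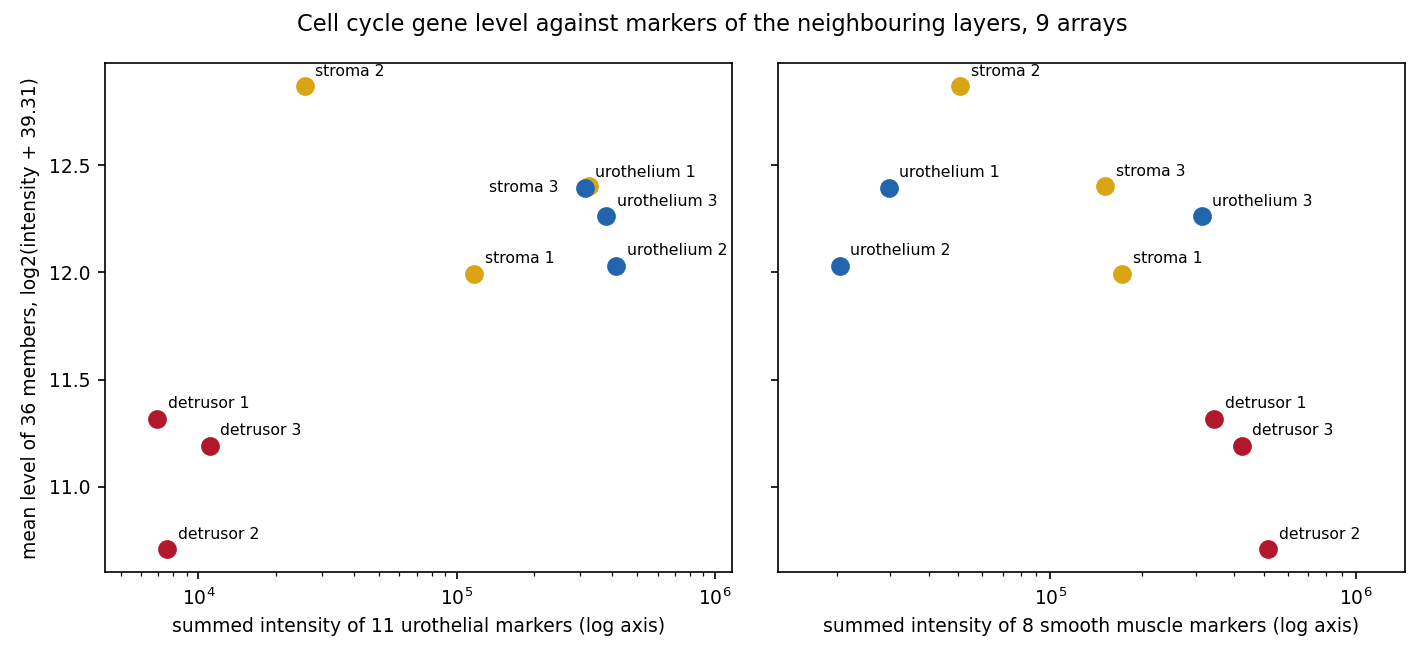
Mean level of the 36 genes, as log2(intensity + 39.31), on each of the 9 arrays against the summed intensity of 11 urothelial markers (left) and of 8 smooth muscle markers (right), both on log axes. Stroma 2, at 12.87, has the highest mean with 25754 units of urothelial signal, and urothelium 3, at 12.26, lies with its own layer in height and near the detrusor arrays in smooth muscle signal.

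Postnatal day was fitted beside layer. Between day 2 and day 1, 0 of the 36 genes were called by limma, where 0.00765% of all genes were called in each direction, and 3 were at an unadjusted p under 0.05: Ccnd2 (2.29 ± 0.85), Top2a (0.78 ± 0.31) and Gmnn (0.74 ± 0.27), each with an adjusted p of 0.87. Over all 13064 genes, 727 were at an unadjusted p under 0.05. The differences were above 0 for 31 of the 36 and for 6940 of all genes, with a median of 0.35 beside 0.03 for all genes. With arrays centred on their medians, the median was 0.07 beside -0.25.

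Other genes of the same processes were listed by role and not by their values. Of 36 other replication genes tested, 12 were higher in urothelium than in detrusor and 1 was lower, and 8 were higher in stroma and 0 lower, with medians of 1.00 and 1.14. Of all genes, 8.37% were called higher and 8.05% lower in urothelium, and 2.72% and 3.12% in stroma. Fen1, the nuclease that trims Okazaki fragments, read 12.42, 12.70 and 11.86 on detrusor, 13.81, 14.49 and 13.53 on stroma, and 14.37, 14.32 and 14.16 on urothelium. It was higher by 1.96 ± 0.31 in urothelium (limma adjusted p = 0.0026) and by 1.62 ± 0.31 in stroma (adjusted p = 0.018), with no overlap. Gins1, a part of the active helicase, was higher by 1.90 ± 0.37 in urothelium and by 2.01 ± 0.37 in stroma, and Uhrf1, which carries DNA methylation through replication, by 1.52 ± 0.33 and 1.89 ± 0.33. Rfc5, a subunit of the clamp loader, was higher in urothelium by 1.40 ± 0.31, and Dut, which keeps uracil out of DNA, in stroma by 1.25 ± 0.27. Pola2, the B subunit of the polymerase that makes primers, went the other way. It read 11.36, 11.18 and 11.83 on detrusor, 9.76, 10.41 and 10.68 on stroma, and 9.91, 9.26 and 10.14 on urothelium, with a difference of -1.69 ± 0.39 in urothelium (limma adjusted p = 0.014). The call was lost in 3 of the 22 alternatives, among them the mean of a gene's probe sets. Over the 22 the difference ran from -2.01 to -0.51, with limma adjusted p up to 0.35.

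Of 45 other mitosis genes tested, 12 were higher in urothelium than in detrusor and 11 in stroma, 0 were lower in either, and the medians were 0.89 and 1.20. The shares over all genes were 8.37% higher and 8.05% lower in urothelium, and 2.72% and 3.12% in stroma. Kif23, a motor of the central spindle in cytokinesis, read 10.40, 10.69 and 10.57 on detrusor, 12.10, 13.02 and 12.84 on stroma, and 12.76, 12.56 and 12.71 on urothelium. Its lowest array outside detrusor stood more than 1 log2 unit above its highest in detrusor, and the differences were 2.12 ± 0.31 (limma adjusted p = 0.0018) and 2.10 ± 0.31 (adjusted p = 0.0069). Incenp and Cdca8, which with Aurkb and Birc5 form the chromosomal passenger complex, were higher by 1.75 and 1.15 in urothelium and by 2.06 and 1.36 in stroma. Cdca3, a trigger of mitotic entry, was higher in urothelium by 1.62 ± 0.31, and Ncaph, a condensin subunit, in stroma by 1.88 ± 0.33. Between urothelium and stroma 0 of the 36 other replication genes and 0 of the 45 other mitosis genes were called by limma, with 2 and 4 at an unadjusted p under 0.05. That unadjusted threshold was met by 2481 of all 13064 genes.

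Genes that restrain the cycle were listed too. Of 17 such brakes tested, 5 were higher in urothelium than in detrusor and 0 lower, and 2 were higher in stroma, with medians of -0.09 and 0.53. The shares over all genes were 8.37% higher and 8.05% lower in urothelium, and 2.72% and 3.12% in stroma. E2f8, a repressor member of the E2F family that is itself made in S phase, read 10.01, 9.47 and 9.81 on detrusor, 12.22, 11.07 and 11.97 on stroma, and 13.14, 11.59 and 12.61 on urothelium. It was higher by 2.68 ± 0.45 in urothelium (limma adjusted p = 0.0031) and by 1.99 ± 0.45 in stroma (adjusted p = 0.030). Cdkn1a, the p21 inhibitor of cyclin-dependent kinases, read 10.29, 10.32 and 9.47 on detrusor, 10.39, 10.31 and 10.97 on stroma, and 12.41, 13.29 and 11.42 on urothelium. Only the urothelium arrays stood apart from detrusor, and Cdkn1a was higher there by 2.35 ± 0.48 (limma adjusted p = 0.0076). The others called in urothelium were Rbl1, a relative of the retinoblastoma protein (2.16 ± 0.48), the antiproliferative gene Btg1 (1.36 ± 0.24) and the p53 target Ccng1 (1.22 ± 0.32). Btg1 was also higher in stroma, by 1.07 ± 0.24, a call lost in 11 of the 22 alternatives. Of 10 partners of the G1 step, 1 was higher in urothelium, near the 8.37% of all genes called higher there. It was the Cdk-activating phosphatase Cdc25a (1.63 ± 0.50, limma adjusted p = 0.048), and its call was lost in 14 of the 22 alternatives. In stroma 0 of the 10 were called by limma, with 4 at an unadjusted p under 0.05. That unadjusted threshold was met by 2986 of all 13064 genes.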

How the data were processed

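The authors deposited 1 linear intensity per probe set and array, made with the Affymetrix software GCOS according to the submitters' processing notes. Version, summary method and target value were not given in the sources used here. After trimming 2% at each end, the mean was 1500.01 on all 9 arrays, so the authors' intensity scale was kept. No detection calls were used. Array medians ran from 133.28 to 388.47 intensity units, and the number of arrays limits the precision.

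Values were taken as log2(intensity + 39.31) of the deposited intensities. Probe sets at or above the array median on at least 3 of 9 arrays were kept, and a gene was read from its brightest probe set by mean (13064 genes). Symbols came from the platform annotation, and 34945 probe sets had 1 symbol, 932 several and 9160 none. A lookup by gene identifier in a RefSeq table of GRCm38.p6 changed 0 symbols. Layers were compared in 1 limma 3.58.1 fit (R 4.3.3, lmFit and eBayes with a trend, 2-sided) over all 9 arrays with layer as the term, and day was tested beside layer. P-values were adjusted by Benjamini-Hochberg over all genes, with 0.05 as the threshold. The code was tested on simulated data. The member genes, the gene and marker lists and the alternatives were chosen with earlier results of these data known. Every member is named, and of the other replication and mitosis lists the 4 called genes with the smallest adjusted p in each comparison and those going against the list. Called brakes and G1 partners are all named. Alternatives covered scaling, pseudocount (8.13 and 232.88), the filter, probe set choice, array weights, covariates, the samples fitted and leaving out arrays.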

Additional observations from a re-analysis of the deposited data

How the results depend on the processing

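No paired analysis was possible because the labels give no replicate numbers shared between layers. In the comparisons of urothelium with stroma and of day 2 with day 1, 0 members and 0 other replication or mitosis genes were called under every alternative run. Leaving out 1 array gave 7 to 19 members called in urothelium against detrusor and 1 to 15 in stroma against detrusor. The shares of all genes called then ran from 8.97% to 18.6% and from 0.80% to 6.51%. For the other replication and mitosis genes the ranges were 13 to 28 (25 with all arrays) and 3 to 25 (19 with all arrays). Centring arrays on their medians gave 2 members in stroma, 16 other genes in urothelium and 5 in stroma, and mean differences of 1.21 for replication and 0.95 for mitosis genes in stroma. Of all genes, 13.3% were then called in urothelium and 5.61% in stroma. Array weights gave 40 other genes in urothelium, where 29.0% of all genes were called, against 16.4% in the main fit. Without stroma 3 and urothelium 3, 6 members and 16 other genes were called in urothelium and 4 members in stroma. The shares over all genes were 14.4% and 3.28%. Without these and detrusor 2, chosen after seeing the data, 3 of 36 members and 7 of 81 other genes were called in urothelium. In stroma 1 member and 1 other gene were called. The shares of all genes called in either direction were then 10.01% in urothelium and 1.06% in stroma. Fewer arrays leave fewer degrees of freedom, and beyond that the cause of these changes was not tested.

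Signs turned only in genes that were not called. Leaving out or weighting arrays, dropping the trend or fitting only the layers compared could not turn a called member. Its detrusor arrays lay below all arrays of the other layer. The same held for the pseudocount and the filter where the probe set stayed the same. In urothelium against detrusor, Ccne2 was -0.011 with array weights, -0.030 with day added, -0.24 without stroma 3 and urothelium 3 and -0.21 without detrusor 2 as well, and -0.29 to 0.48 leaving out 1 array. Foxm1 was -0.16 with day added and -0.030 without those 3 arrays, and Ccnd1 -1.41 to 0.28 leaving out 1 array. In stroma against detrusor, Ccnd2 was -0.13 with day added, -0.62 without stroma 3 and urothelium 3, -1.01 without detrusor 2 as well, and -0.62 to 2.44 leaving out 1 array, and Ccnd1 -0.64 to 0.22. In urothelium against stroma, Bub1 was -1.17 to 0.017. The cause was not tested. Dim genes are compressed by the pseudocount, and no background value was used to bound them.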
